A study of Xenopus tropicalis with 27 samples.

Results

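The midbrain-hindbrain boundary genes are 8 genes looked for by symbol in RNA-seq count tables of Xenopus tropicalis tadpole brain: otx2, gbx2, en1, en2, pax2, pax5, pax8 and fgf8. All but gbx2 were present, so 7 genes of 16212 in the table of drug-exposed brains and of 16049 in the table of untreated brains are described. No row bore the symbol gbx2; 2 genes named gbx2.1 and gbx2.2, which stand next to each other in the RefSeq gene table, were shown beside the 7 members and kept out of their counts. The drug libraries came from brains at stage 46 exposed from stage 30 to 10 µM β-estradiol, an estrogen, to 5 µM cyclopamine, a plant alkaloid that blocks the Hedgehog signal transducer Smoothened, or to the solvent DMSO as control. Each of these libraries pooled 3 brains. The untreated libraries came from wild-type brains at stages 40, 42, 44, 45, 46 and 47. Every group had 3 libraries. No genotype is stated for the drug libraries, and nothing in the labels ties a library to a clutch or a dissection. The p-values therefore set differences between groups only against the spread between these libraries. That spread may be partly technical and may not hold the variation between clutches.

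In the vertebrate embryo the junction of midbrain and hindbrain, the isthmus, acts as a signalling centre that patterns the tectum in front of it and the cerebellum behind it. The homeobox factor Otx2 holds the midbrain side and Gbx2 the hindbrain side, and the centre forms where they meet. There the secreted factor Fgf8 and, on the midbrain side, Wnt1 maintain the engrailed genes en1 and en2 and the paired-box genes pax2, pax5 and pax8, which in turn keep the centre active. Several of these genes are also used elsewhere, for example otx2 in the forebrain and eye, pax2 in the optic stalk, kidney and ear, pax8 in thyroid, kidney and ear, and pax5 in B cells. These examples are not a full list, and reads of whole brain cannot be assigned to the isthmus.

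Drug libraries held 17.6 to 28.5 M counts and untreated libraries 12.9 to 48.3 M counts. Levels are CPM, that is, read counts scaled to library sizes that were corrected by the trimmed mean of M values (TMM), and a call means that edgeR's quasi-likelihood test gave an adjusted p (Benjamini-Hochberg, all genes of the table) under 0.05. The 7 members had reads in every library. The thinnest value was en1 in estradiol replicate 3, with 39 counts. Among 27 measured pan-neuronal genes none was at 0 in a group. Estradiol replicate 3 stood apart from the other libraries of its group: the summed level of the pan-neuronal list was 11848 CPM in estradiol replicate 3, against 15744 and 15503 CPM in the other estradiol libraries. The cyclopamine libraries differed from each other in more than 1 respect. Replicate 1 had the lowest pan-neuronal sum of the group (12545 CPM, with 15359 and 13616 CPM in replicates 2 and 3) and the highest sums of muscle, melanocyte and leukocyte genes. The mean log2 CPM of the epidermis list was 4.47 and 5.55 in replicates 2 and 3 and 2.95 in replicate 1. By summed level, replicate 1 (676 CPM) lay between replicates 2 (514 CPM) and 3 (792 CPM), so its place depends on the measure. Calls that were lost or gained without 1 of these libraries are given with the gene. Brains were sequenced in bulk, so fewer cells of a type and less RNA per cell cannot be told apart.

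The stage series asked how transcripts of the boundary genes change as the untreated brain grows. All 7 members had a lower mean at stage 47 than at stage 40. All except fgf8 were called lower, by factors between 1.53 for pax8 and 2.80 for pax5. In edgeR, 6 of 7 were called lower and 0 higher, where 40.8% of all genes were called lower and 80.8% were called in either direction, so that a call as such is not particular to these genes. The median log2 fold change of the 7 members was -1.07, against -0.01 over all genes. Every member differed among the 6 stages, as did 88.4% of all genes. The span between the highest and the lowest stage was 1.48 on the log2 scale for pax5 and 0.61 for fgf8, at the ends of the members' range, with a median of 0.90 over all genes.

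Fgf8, the signal released by the isthmus, did not follow the other members. In the 3 libraries of each stage it had 8.56, 10.4 and 9.34 CPM at stage 40; 6.98, 8.56 and 6.14 CPM at stage 42; 8.68, 8.74 and 8.29 CPM at stage 44; 10.4, 10.7 and 12 CPM at stage 45; 9.02, 7.18 and 6.54 CPM at stage 46; and 8.54, 8.46 and 8.57 CPM at stage 47. The level was highest at stage 45 and lowest at stage 42, and the libraries at stage 47 lay close to the lowest of stage 40. Between stages 47 and 40 the log2 fold change was -0.15 ± 0.13 (SE, 3 libraries per group; adjusted p = 0.293 in edgeR). It was -0.55, and called, when libraries were scaled to equal levels of pan-neuronal genes, a scaling that moved the median of all genes by -0.41. Step by step, fgf8 fell at stage 42 against stage 40 (-0.39 ± 0.13, adjusted p = 0.017 in edgeR), rose at stage 45 against stage 44 (0.36 ± 0.13, adjusted p = 0.0473) and fell at stage 46 against stage 45 (-0.54 ± 0.13, adjusted p = 0.00196). The first of these calls was lost without stage 40 replicate 2 (adjusted p = 0.0748 in edgeR) or stage 42 replicate 3 (adjusted p = 0.11). The rise at stage 45 was lost without any 1 of the 6 libraries compared, with adjusted p between 0.0645 and 0.158. It was also lost with relative log expression scaling (0.0554), in DESeq2 (0.0665), with a replicate block (0.0562) and under pan-neuronal scaling (0.0986). It was thus lost in 10 of 13 alternatives. The 13 include the setting without a filter, which repeats the main fit.

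Otx2, which specifies forebrain and midbrain, had 139, 140.3 and 127 CPM at stage 40; 107, 93.7 and 84.3 CPM at stage 42; 99.0, 112 and 93.4 CPM at stage 44; 92.4, 90.6 and 108 CPM at stage 45; 86.4, 81.5 and 81.2 CPM at stage 46; and 61.8, 62.3 and 66.0 CPM at stage 47. The stage 40 libraries were all above, and the stage 47 libraries all below, those of every other stage. The stages between, ordered by mean (44, 45, 42, 46), overlapped each with the next. In order of time, however, the stage 46 libraries were all below those of stage 45. The log2 fold change of stage 47 against stage 40 was -1.09 ± 0.08 (adjusted p = 1.8e-11 in edgeR). Its paralogue otx1 fell by 1.44 on the log2 scale (SE 0.11).

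The 2 gbx2 copies, whose mammalian counterpart specifies the anterior hindbrain, differed from each other. The copy gbx2.1 averaged 49.7 ± 3.46 CPM at stage 40, 49.1 ± 0.934 at stage 42, 41.9 ± 4.24 at stage 44, 40.8 ± 3.26 at stage 45, 44.3 ± 1.31 at stage 46 and 46.2 ± 1.7 CPM at stage 47 (SD, 3 libraries per stage). Stage 47 was not called against stage 40 (log2 fold change -0.11 ± 0.07, adjusted p = 0.167 in edgeR), and this small difference was 0.0029 on the authors' deposited normalized values and -0.52, and called (adjusted p = 3.62e-07 in edgeR), when libraries were scaled to pan-neuronal genes. The copy gbx2.2 had 13.9, 13 and 15.2 CPM at stage 47, against 28.3, 27.9 and 28.2 CPM at stage 40, which do not overlap, and fell by 1.002 on the log2 scale at stage 47 (SE 0.09, adjusted p = 3.71e-10 in edgeR). The symbols are those of tandem copies, so reads may be shared between them and each value is uncertain as that of 1 gene. Within a library, the log2 ratio of otx2 to gbx2.1 counts was 0.47, 0.44 and 0.46 at stage 47, against 1.53, 1.56 and 1.24 at stage 40, a difference of means of -0.99. Such a ratio does not depend on how libraries are scaled. It was 1 of 4 ratios (with pax5 to pax8, pax5 to pax2 and en2 to en1), chosen after the values were seen and compared in 16 tests. The two-sided exact permutation test gave p = 0.1, the smallest that 3 libraries against 3 allow (adjusted p = 0.16 over the 16).

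The engrailed genes, which position midbrain and cerebellar structures, both fell. En2 had 53.6, 47.2 and 47.7 CPM at stage 40; 40.4, 36.8 and 35.0 CPM at stage 42; 35.1, 40.1 and 38.4 CPM at stage 44; 31.4, 32.4 and 37.1 CPM at stage 45; 34.2, 28.3 and 29.3 CPM at stage 46; and 24.2, 21.3 and 25.3 CPM at stage 47. Stage 40 lay above and stage 47 below all other stages, as for otx2, and the stages between overlapped with their neighbours in order. The log2 fold change of stage 47 against stage 40 was -1.07 ± 0.09 (adjusted p = 1.52e-10 in edgeR). En1 averaged 8.83 ± 1.98 CPM at stage 40, 6.25 ± 1.05 at stage 42, 6.32 ± 0.927 at stage 44, 5.57 ± 0.458 at stage 45, 5.64 ± 0.360 at stage 46 and 4.91 ± 0.367 CPM at stage 47 (SD, 3 libraries per stage). Each stage of en1 overlapped with the next in the order of means, but all 3 libraries at stage 47, at 4.98, 4.51 and 5.24 CPM, were below those at stage 40, at 10.1, 6.55 and 9.84 CPM (-0.86 ± 0.16, adjusted p = 3.79e-05 in edgeR). The log2 ratio of en2 to en1 counts within a library, which compares libraries and not the levels of the 2 genes, was 2.28, 2.24 and 2.27 at stage 47 and 2.41, 2.85 and 2.28 at stage 40, ranges that overlap (exact permutation p = 0.2).

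Among the paired-box genes, pax5 fell most. It had 21.7, 18.3 and 19 CPM at stage 40; 11.1, 15.6 and 12.4 CPM at stage 42; 10.7, 12.2 and 10.7 CPM at stage 44; 10.0, 10.2 and 9.23 CPM at stage 45; 9.88, 9.96 and 7.75 CPM at stage 46; and 6.35, 6.64 and 8.06 CPM at stage 47. Stage 40 stood above all later libraries, and from stage 45 on each stage overlapped with the next (stage 47 against stage 40, -1.48 ± 0.13, adjusted p = 2.64e-10 in edgeR). Pax2 averaged 39.0 ± 4.85 CPM at stage 40, 35.0 ± 2.40 at stage 42, 29.1 ± 1.98 at stage 44, 23.3 ± 4.24 at stage 45, 23.0 ± 2.41 at stage 46 and 18.2 ± 2.08 CPM at stage 47 (SD, 3 libraries per stage). Its decline was spread over the series, the only gap between neighbouring stages being that between stages 42 and 44 (stage 47 against stage 40, -1.11 ± 0.12, adjusted p = 1.06e-08 in edgeR). Pax8 was called in 1 step between adjacent stages. It averaged 37.6 ± 3.83 CPM at stage 40 and 36.8 ± 0.643 at stage 42, and then 27.2 ± 1.69 at stage 44, 24.9 ± 0.515 at stage 45, 22.8 ± 1.65 at stage 46 and 24.8 ± 3.04 CPM at stage 47 (SD, 3 libraries per stage). It fell at stage 44 against stage 42 by 0.43 on the log2 scale (SE 0.09, adjusted p = 0.00826 in edgeR), where 2.32% of all genes were called, and no other member was called in that step; the call was lost without stage 44 replicate 1 (adjusted p = 0.0607).

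**Figure D1:**
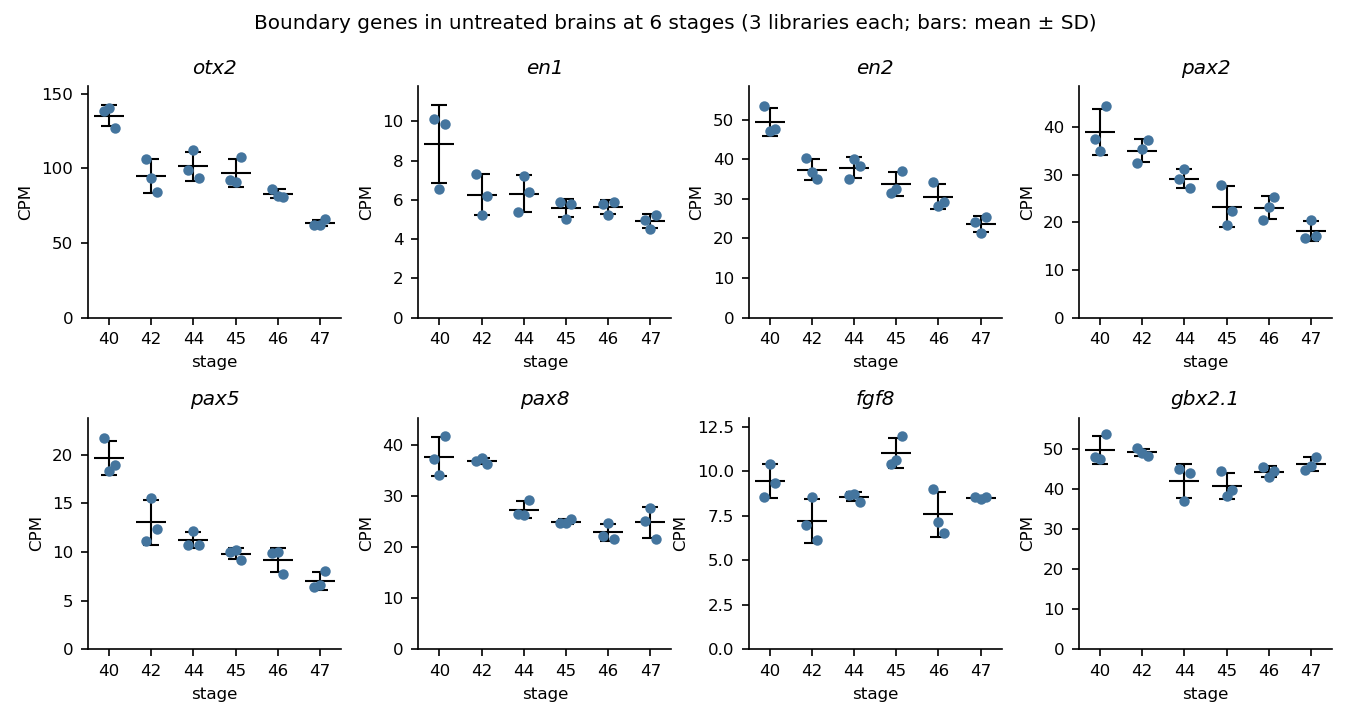
Level of 7 boundary genes and of gbx2.1 in CPM (vertical axis) by stage (horizontal axis) in untreated brains; points are the 3 libraries of a stage, bars the mean ± SD. In edgeR 6 members are called lower at stage 47 than at stage 40. Fgf8 is not called in that comparison and has its highest level at stage 45 (11 ± 0.846 CPM), and gbx2.1 stays between 37.1 and 53.7 CPM.

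Between adjacent stages, edgeR made 13 calls on the 7 members, 12 lower and 1 higher. At stage 42 against stage 40, 5 of 7 were called lower (otx2, en1, en2, pax5 and fgf8), where 22.4% of all genes were called lower. The call of en1 in that step was lost without stage 40 replicate 1 or 3 or stage 42 replicate 2. At stage 45 against stage 44 only fgf8 was called, higher (11.6% of all genes were called higher). At stage 46 against stage 45, 2 of 7 were lower, otx2 (-0.22 ± 0.08) and fgf8, where 22.9% of all genes were lower. At stage 47 against stage 46, 4 of 7 were lower, where 25.8% of all genes were: otx2 (-0.39 ± 0.08), en2 (-0.37 ± 0.09), pax2 (-0.35 ± 0.12) and pax5 (-0.38 ± 0.14). In this last step the call of pax2 was lost without stage 46 replicate 2 or 3 or stage 47 replicate 1 or 3, and that of pax5 without stage 46 replicate 1 or 2 or stage 47 replicate 1 or 2, with adjusted p of at most 0.107 in edgeR. All 4 calls were lost when libraries were scaled to the pan-neuronal list (adjusted p between 0.0516 and 0.201), a scaling that moved the median of all genes by 0.16 in that step. The call of otx2 at stage 46 was lost without stage 45 replicate 3 (adjusted p = 0.208 in edgeR) or stage 46 replicate 2 or 3, with relative log expression scaling (0.0694), in DESeq2 (0.0716) and in limma (0.0593). Pax2 at stage 45 against stage 44, not called in the fit reported here, was called lower with relative log expression scaling (adjusted p = 0.0465), under pan-neuronal scaling (0.0248), in DESeq2 (0.0377), in limma (0.0456) and without stage 45 replicate 1 (0.00916). Scaling to pan-neuronal genes also called pax2 (-0.54) and pax8 (-0.41) lower at stage 42, en2 (-0.32) and pax8 (-0.31) lower at stage 46, and pax8 (0.28) and fgf8 (0.34) higher at stage 47, each against the stage before.

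Other boundary genes showed both directions over the series. Of all genes, 40% were called higher at stage 47 than at stage 40 and 40.8% lower. Wnt1, the signal of the midbrain side, had 6.81, 4.46 and 7.46 CPM at stage 47, against 28.6, 21.6 and 22.4 CPM at stage 40, and fell by 1.94 on the log2 scale (SE 0.14, adjusted p = 1.15e-11 in edgeR). In the list of Wnt-side and other boundary regulators, 12 of 17 measured genes were lower and 2 higher, with a median of -0.90, among them lmx1b.1, a LIM-homeobox factor whose mouse counterpart maintains Wnt1 (-0.96 ± 0.07), and the Iroquois factor irx3 (-1.11 ± 0.08). In the FGF signalling list, 9 of 17 were higher and 3 lower, with a median of 0.26; the feedback inhibitors spry4 (2.33 ± 0.10) and spred1 (0.92 ± 0.06) rose, while the receptors fgfr1 (-1.28 ± 0.06) and fgfr4 (-0.96 ± 0.07) fell.

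In the structures on either side of the isthmus, 10 of 18 midbrain and tectum genes were lower and 3 higher (median -0.30), including pax3, a dorsal midbrain factor (-1.43 ± 0.09), and dmbx1, a midbrain homeobox gene (-0.91 ± 0.09). Of 19 measured cerebellum and rhombomere 1 genes, 8 were higher and 10 lower, with a median of -0.26 and shares near those over all genes: the synapse organizer cbln1 rose by 3.43 ± 0.17, cbln2 by 1.01 ± 0.06 and rora, a nuclear receptor of Purkinje cells, by 1.42 ± 0.10, while lhx5, a factor of young neurons, fell by 1.39 on the log2 scale (SE 0.06). Of 11 monoamine neuron genes, 4 were higher and 5 lower (median -0.09), also near those shares, with phox2a, a factor of noradrenergic neurons (-1.66 ± 0.12), and lmx1a (-1.31 ± 0.12) among the lower ones. Markers of other places moved as well. The summed level of 12 forebrain factors was 472 to 505 CPM at stage 47, against 691 to 885 CPM at stage 40, that of 11 hindbrain Hox and segment genes was 194 to 207 CPM, against 247 to 327 CPM, and that of 8 eye genes was 54.9 to 70.0 CPM, against 155 to 170.0 CPM. Melanocyte genes summed to 33.9 to 37.3 CPM at stage 47, against 125 to 175 CPM at stage 40, with 7 of 9 called lower and 1 higher. Leukocyte genes summed to 106 to 108 CPM, against 41.4 to 51.0 CPM, with 5 of 8 called higher. Of the 27 pan-neuronal genes 17 were called higher and 9 lower, while their sum was 15290 to 15720 CPM, against 16503 to 17049 CPM. Of the tissues that use pax2 or pax8, kidney and thyroid genes summed to 77.6 to 87.5 CPM, against 70.4 to 80.7 CPM, with 3 of 4 called higher. Ear genes summed to 57.2 to 58.4 CPM, against 40.1 to 45.9 CPM, with 2 of 6 called higher and 1 lower. Both members were lower at stage 47. No gene of these lists was at 0 throughout a stage, and their part in the decline of the members was not tested.

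Cyclopamine brains were set against DMSO brains to see how the boundary genes stand in tadpoles kept in the Smoothened blocker from stage 30 on. In cyclopamine brains pax5 was 3.42-fold and en2 2.001-fold lower than in DMSO brains, fgf8 was 1.51-fold lower and pax8 1.77-fold higher, whereas otx2, en1 and pax2 were not called. Thus 4 of 7 members were called in edgeR, 3 lower and 1 higher, where 19.6% of all genes were called, 9.59% lower and 9.97% higher. The median log2 fold change of the members was -0.25, against -0.08 over all genes, and 5 of 7 members had groups that did not overlap, as had 49.1% of all genes.

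Pax5 had 3.32, 3.002 and 2.89 CPM in cyclopamine brains, against 10.8, 10.2 and 10.6 CPM in DMSO brains. The libraries of each group lay close together and the groups were far apart (log2 fold change -1.77 ± 0.21, adjusted p = 6.53e-04 in edgeR). The call held in all 15 other settings tried, with log2 fold changes from -1.80 to -1.46 and adjusted p of at most 0.0254. Its relatives differed: pax8 had 27.0, 22.4 and 36.2 CPM in cyclopamine brains, against 13.4, 21.0 and 13.9 CPM in DMSO brains. The lowest cyclopamine library was just above the highest DMSO library, and the log2 fold change was 0.83 ± 0.24 (adjusted p = 0.0374 in edgeR). Untreated stage 46 brains, scaled apart from the drug libraries, had 22.2, 24.7 and 21.6 CPM of pax8, above every DMSO library. This was not particular to pax8. Untreated stage 46 libraries also lay above every DMSO library for en1 and pax2, and below every DMSO library for otx2 and pax5. For en2 and fgf8 they overlapped. Untreated and DMSO libraries were not tested against each other. Without cyclopamine replicate 1 or 3 or DMSO replicate 1 or 3 the call of pax8 was lost (adjusted p between 0.0638 and 0.14 in edgeR), as it was with cyclopamine replicate 1 as the sole library of its group (0.83, adjusted p = 0.162). Pax2 had 19.4, 15 and 21.0 CPM in cyclopamine brains, against 17.1, 19.5 and 13.1 CPM in DMSO brains, overlapping ranges with a log2 fold change of 0.16 ± 0.20 (adjusted p = 0.594 in edgeR). The log2 ratio of pax5 to pax8 counts within a library was -3.02, -2.90 and -3.64 in cyclopamine brains, against -0.32, -1.04 and -0.39 in DMSO brains, a difference of means of -2.61. The exact permutation test again gave the smallest p possible, 0.1 (adjusted p = 0.16 over the 16 ratio tests), and the log2 ratio of pax5 to pax2 differed by -1.94 with the same p.

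The engrailed genes also differed from each other. En2 had 18, 14.8 and 12.8 CPM in cyclopamine brains, against 28.7, 31.1 and 31.6 CPM in DMSO brains. All cyclopamine libraries were below all DMSO libraries, with replicate 3 lowest (-1.001 ± 0.17, adjusted p = 0.00399 in edgeR). The call was lost with cyclopamine replicate 1 as the sole library of its group, whose spread is then assumed to equal that of the other groups (-0.67, adjusted p = 0.146), and under scaling to pan-neuronal genes (-0.68, adjusted p = 0.122), which moved the median of all genes by 0.31. En1 had 3.40, 3.002 and 4.13 CPM in cyclopamine brains, against 2.97, 3.43 and 3.61 CPM in DMSO brains, and the ranges overlapped (0.07 ± 0.24, adjusted p = 0.845 in edgeR; the sign turned on the authors' deposited normalized values, at -0.13). The log2 ratio of en2 to en1 counts was 2.41, 2.30 and 1.63 in cyclopamine brains, against 3.27, 3.18 and 3.13 in DMSO brains. The ranges of this ratio did not overlap. The exact permutation p was 0.1, the smallest possible (adjusted p = 0.16 over the 16 ratio tests). Like the other ratios it was chosen after the values were seen. In the untreated libraries this ratio lay between 2.24 and 2.85, and at stage 46 it was 2.57, 2.43 and 2.31. Cyclopamine replicates 1 and 2 lay inside the untreated range and replicate 3 below it, whereas all DMSO libraries lay above it. Of en1, untreated stage 46 brains, scaled apart from the drug libraries, had 5.77, 5.23 and 5.91 CPM, above every cyclopamine and DMSO library.

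**Figure D2:**
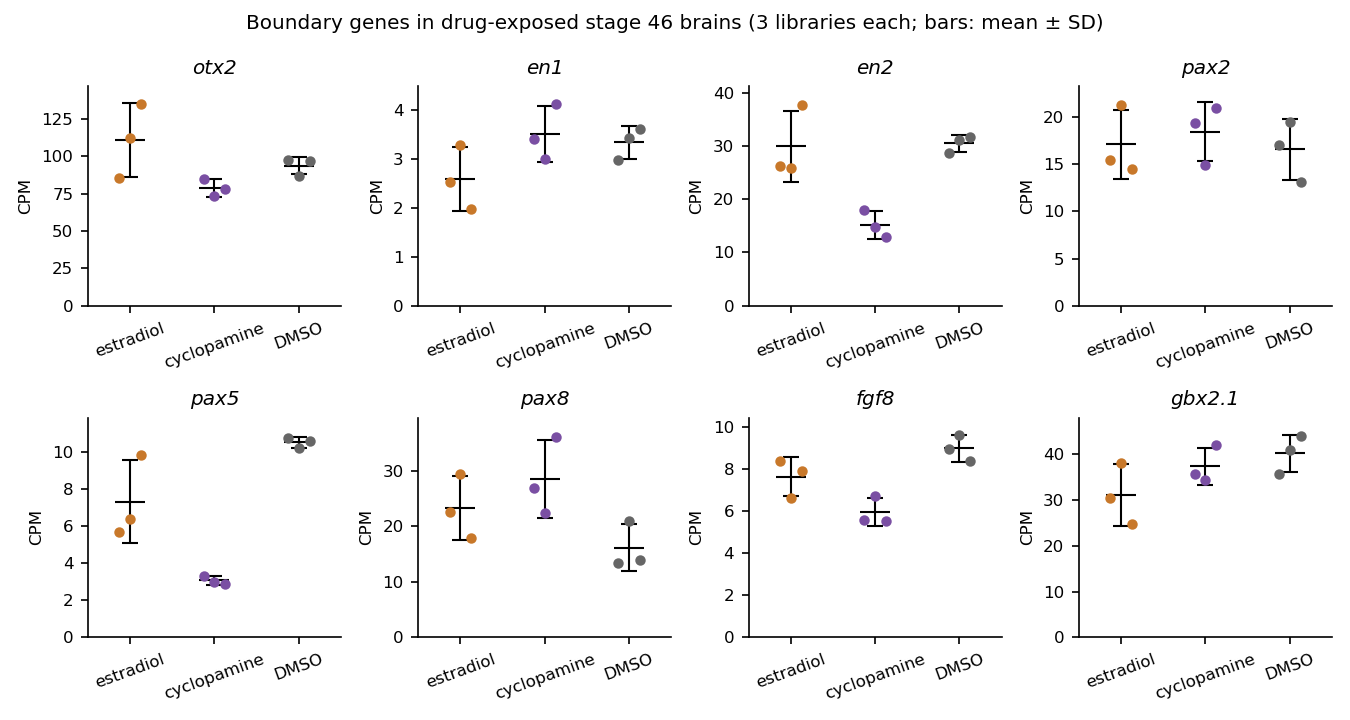
Level of 7 boundary genes and of gbx2.1 in CPM (vertical axis) in estradiol, cyclopamine and DMSO brains at stage 46; points are the 3 libraries of a group, bars the mean ± SD. Pax5 averages 3.07 ± 0.223 CPM in cyclopamine brains, against 10.5 ± 0.278 CPM in DMSO brains, and the estradiol libraries of pax5 spread from 5.69 to 9.88 CPM.

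Fgf8 had 5.58, 6.74 and 5.55 CPM in cyclopamine brains, against 8.96, 9.65 and 8.38 CPM in DMSO brains. The groups did not overlap. The log2 fold change was -0.59 ± 0.16 (adjusted p = 0.0267 in edgeR). The call was among the least steady: it was lost without cyclopamine replicate 1 or 3 or any DMSO replicate (adjusted p between 0.0523 and 0.144 in edgeR), with a filter at 5 CPM (0.0598) with cyclopamine replicate 1 as the sole library of its group (-0.60, adjusted p = 0.201) and under scaling to pan-neuronal genes (-0.29, adjusted p = 0.394). Otx2 had 85.1, 73.5 and 77.9 CPM in cyclopamine brains, against 97.7, 87.0 and 96.8 CPM in DMSO brains. The groups did not overlap, but the gene was not called (-0.25 ± 0.15, adjusted p = 0.232 in edgeR), and the sign turned under scaling to pan-neuronal genes, at 0.07. Its paralogue otx1 had 26.2, 27.3 and 23.3 CPM in cyclopamine brains, against 47.1, 42.8 and 55.5 CPM in DMSO brains. It fell by 0.92 on the log2 scale (SE 0.17, adjusted p = 0.00645 in edgeR). The call was lost under scaling to pan-neuronal genes (adjusted p = 0.146) and with cyclopamine replicate 1 as the sole library of its group (0.13). The copy gbx2.1 had 35.8, 34.4 and 42.0 CPM in cyclopamine brains, against 35.7, 41.0 and 43.9 CPM in DMSO brains, and gbx2.2 had 15.7, 11.9 and 15 CPM, against 11.7, 16.7 and 18.3 CPM, overlapping in both. Neither gbx2.1 (-0.10 ± 0.16) nor gbx2.2 (-0.13 ± 0.19) was called, and for both the sign turned under scaling to pan-neuronal genes. Wnt1 had 7.75, 6.55 and 5.69 CPM in cyclopamine brains, against 10.5, 10.4 and 10.8 CPM in DMSO brains, which did not overlap, and missed the threshold (-0.67 ± 0.21, adjusted p = 0.0507 in edgeR); limma on the deposited values called it (adjusted p = 0.0379), as did edgeR with only the 6 libraries compared (0.0147).

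Around the members, where 9.59% of all genes were lower and 9.97% higher, 6 of 17 Wnt-side and other boundary regulators were lower with cyclopamine and 0 higher (median -0.38), among them the Wnt ligand wnt8b (-1.32 ± 0.26) and the Groucho corepressor tle4 (-0.40 ± 0.08). Of 17 FGF signalling genes (median -0.12) only flrt3, a membrane protein that promotes FGF signalling in Xenopus, was called (-0.71 ± 0.12). Of 18 midbrain and tectum genes 7 were lower and 0 higher (median -0.28), including the tectal factor lhx9 (-0.74 ± 0.11) and tal1 (-0.64 ± 0.13), tal2 (-0.65 ± 0.13) and gata2 (-0.45 ± 0.10), factors of midbrain GABAergic neurons. Of 19 cerebellum and rhombomere 1 genes (median -0.20) 6 were lower, such as neurod1 (-0.77 ± 0.10), lhx5 (-0.56 ± 0.09) and lhx1 (-0.59 ± 0.12), and 1 was higher, the Purkinje cell gene ca8 (1.05 ± 0.16). Of 11 monoamine neuron genes (median -0.21) the serotonin transporter slc6a4 was lower (-1.07 ± 0.20) and dbh, the enzyme that makes noradrenaline, was higher (1.54 ± 0.35).

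Markers of other regions and tissues moved with cyclopamine too. The 12 forebrain factors summed to 322 to 411 CPM in cyclopamine brains, against 629 to 724 CPM in DMSO brains, with 10 called lower. The 11 Hox and segment genes summed to 199 to 291 CPM, against 138 to 176 CPM, with 3 called higher and 1 lower. The 27 pan-neuronal genes summed to 12545 to 15359 CPM, against 16648 to 16978 CPM, with 8 called lower. The 11 muscle genes summed to 94.4 to 178 CPM, against 22.2 to 26.5 CPM, with 8 called higher. The 8 leukocyte genes summed to 91.0 to 122 CPM in cyclopamine brains, against 34.1 to 41.8 CPM in DMSO brains, and all 8 were called higher. Melanocyte genes summed to 56.8 to 143 CPM, against 34.2 to 37.2 CPM, with 6 of 9 called higher. Epidermis genes summed to 514 to 792 CPM, against 402 to 443 CPM, with 5 of 10 called higher and 1 lower. Eye genes summed to 53.6 to 84.9 CPM, against 87.3 to 91.8 CPM, with 1 of 9 called higher and 2 lower. The 7 choroid plexus and pineal genes overlapped, at 65.9 to 142 CPM, against 81.8 to 131 CPM, with 1 called higher. In untreated stage 46 brains, scaled apart from the drug libraries, leukocyte genes summed to 83.1 to 90.6 CPM and muscle genes to 54.6 to 111 CPM. Hox and segment genes summed to 204 to 213 CPM and pan-neuronal genes to 17898 to 18101 CPM. All of these lay above every DMSO library. Forebrain factors, at 563 to 626 CPM, lay below every DMSO library, and melanocyte genes, at 34.9 to 37.2 CPM, overlapped with DMSO. These differences were not tested. Ear and kidney also use pax8 and pax2, and thyroid uses pax8. The 5 measured ear genes summed to 60.8, 64.5 and 235 CPM in cyclopamine replicates 1, 2 and 3, against 60.0 to 61.9 CPM in DMSO brains, and replicate 3, where the otoconial gene oc90 reached 160.5 CPM, was also the library with most pax8. Cyclopamine replicate 3 also had the highest sums of its group for epidermis genes and for Hox and segment genes. The latter summed to 218, 199 and 291 CPM in cyclopamine replicates 1, 2 and 3. In DMSO and estradiol brains replicate 2 had the most pax8 (21.0 and 29.4 CPM) and the highest Hox and segment sum (176 and 233 CPM). Ear genes summed to 60.0 to 61.9 CPM and 55.8 to 62.1 CPM in these groups, also highest in replicate 2. Of the ear genes 1 was called higher with cyclopamine. The 4 measured kidney and thyroid genes summed to 84.9 to 108 CPM, against 59.4 to 67.0 CPM, mostly from lrp2, a receptor that brain also makes, with 1 called higher. For pax5, the 2 measured B cell genes summed to 4.59 to 8.35 CPM in cyclopamine brains, against 1.997 to 3.26 CPM in DMSO brains, and both were called higher, while pax5 itself was lower. No gene of these lists was at 0 in all libraries of a group, and their part in the members' differences was not tested.

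Estradiol brains were set against DMSO brains to see how the boundary genes stand under the estrogen. No member was called in edgeR (0 of 7, where 2.07% of all genes were called), and DESeq2 and limma also called 0. In edgeR 2 members had an unadjusted p under 0.05, as had 3622 of all 16212 genes. The groups overlapped in all members except pax5 (1 of 7 without overlap, against 26.9% of all genes). Pax5 had 5.69, 6.39 and 9.88 CPM in estradiol brains, against 10.8, 10.2 and 10.6 CPM in DMSO brains. All estradiol libraries were lower, replicate 3 only slightly (-0.53 ± 0.20, adjusted p = 0.166 in edgeR), and without replicate 3 the gene was called (-0.77, adjusted p = 0.0448). Pax8 had 22.7, 29.4 and 17.8 CPM in estradiol brains, against 13.4, 21.0 and 13.9 CPM in DMSO brains, with overlap (0.54 ± 0.24, adjusted p = 0.219 in edgeR).

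Estradiol replicate 3 was the highest or the lowest library of its group in several of the other members. Otx2 had 85.7, 112 and 135 CPM in estradiol brains, against 97.7, 87.0 and 96.8 CPM in DMSO brains, and en2 had 26.2, 25.9 and 37.6 CPM, against 28.7, 31.1 and 31.6 CPM. In both genes replicate 3 was highest, as it was for pax5 and for wnt1, which had 14.2, 13.2 and 22.8 CPM in estradiol brains, against 10.5, 10.4 and 10.8 CPM in DMSO brains. Wnt1 did not overlap between the groups and was not called (0.66 ± 0.21, adjusted p = 0.112 in edgeR). DESeq2 (adjusted p = 0.049984) and edgeR without estradiol replicate 2 (0.0451) called it higher. In en1, pax2, pax8 and gbx2.1 the same library was lowest of its group. En1 had 2.53, 3.28 and 1.98 CPM in estradiol brains, against 2.97, 3.43 and 3.61 CPM in DMSO brains, and pax2 had 15.5, 21.3 and 14.5 CPM, against 17.1, 19.5 and 13.1 CPM, ranges that overlap in both genes. Gbx2.1 had 30.4, 38.2 and 24.7 CPM in estradiol brains, against 35.7, 41.0 and 43.9 CPM in DMSO brains, with overlap through replicate 2. Without that library it was called lower (-0.54, adjusted p = 0.0452 in edgeR). Log2 fold changes were 0.24 ± 0.14 for otx2, -0.03 ± 0.17 for en2, -0.35 ± 0.24 for en1, 0.05 ± 0.20 for pax2 and -0.24 ± 0.16 for fgf8, with adjusted p of at least 0.348 in edgeR. Among these, the sign of en2 and of fgf8 turned under scaling to pan-neuronal genes, which moved the median of all genes by 0.28. Fgf8 had 8.41, 6.64 and 7.90 CPM in estradiol brains, against 8.96, 9.65 and 8.38 CPM in DMSO brains; only estradiol replicate 1 reached into the DMSO range.

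With estradiol, 1.23% of all genes were called higher and 0.833% lower. Around the members, 0 of 17 FGF signalling genes and 0 of 11 monoamine neuron genes were called. Of 17 Wnt-side and other boundary regulators 1 was called (sp5, a Wnt target, 0.65 ± 0.13). Of 18 midbrain and tectum genes 1 was called (lhx9, -0.51 ± 0.11). Of 19 cerebellum and rhombomere 1 genes 3 were called, a larger share than over all genes. These were ca8 (1.08 ± 0.16), neurod1 (-0.67 ± 0.10) and zic2 (-0.51 ± 0.09). The forebrain factors summed to 323 to 398 CPM in estradiol brains, against 629 to 724 CPM in DMSO brains, and 6 of 12 were called lower. The Hox and segment genes summed to 177 to 233 CPM, against 138 to 176 CPM, with 0 of 11 called. Leukocyte genes summed to 62.6 to 99.8 CPM in estradiol brains, against 34.1 to 41.8 CPM in DMSO brains, with 5 of 8 called higher. Muscle genes summed to 33.8 to 64.3 CPM, against 22.2 to 26.5 CPM, with 2 of 11 called higher. Melanocyte genes summed to 34.6 to 73.2 CPM, against 34.2 to 37.2 CPM, with 2 of 9 called higher. Of the pan-neuronal genes 1 of 27 was called lower, and their sum was 11848 to 15744 CPM, against 16648 to 16978 CPM. In the epidermis, eye, choroid plexus and pineal, kidney and thyroid, ear and B cell lists 0 genes were called in edgeR. In untreated stage 46 brains, scaled apart, the leukocyte sum was 83.1 to 90.6 CPM and the muscle sum 54.6 to 111 CPM. The Hox and segment sum was 204 to 213 CPM, and all these were above every DMSO library. The forebrain sum, at 563 to 626 CPM, was below every DMSO library. The part of these markers in the members' values was not tested. Both drug comparisons use the same DMSO libraries, so their values are set side by side without a measure of likeness.

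Set directly against each other, estradiol brains had more pax5 and en2 than cyclopamine brains. These 2 of 7 members were called higher, where 4.16% of all genes were called higher and 6.77% in either direction: pax5 by 1.25 ± 0.21 (adjusted p = 0.00804 in edgeR) and en2 by 0.97 ± 0.17 (adjusted p = 0.0092). In both genes, and in otx2, all estradiol libraries were above all cyclopamine libraries (3 of 7 members without overlap, against 24.6% of all genes). The calls used the spread of all 9 libraries. Neither held in edgeR when only the 6 libraries compared were fitted (pax5 1.23, adjusted p = 0.0603, and en2 0.95, adjusted p = 0.0606). Neither held under scaling to pan-neuronal genes (pax5 1.26, adjusted p = 0.0878, and en2 0.97, adjusted p = 0.13). The log2 fold changes moved little, and in these settings calls over all genes fell from 1097 to 290 and to 237. With cyclopamine replicate 1 as the sole library of its group both were smaller and not called (pax5 1.05, adjusted p = 0.181; en2 0.65, adjusted p = 0.253), and the call of en2 was also lost without cyclopamine replicate 3 (0.80, adjusted p = 0.057). Wnt1 differed in the same direction (1.32 ± 0.21, adjusted p = 0.00619 in edgeR; lost under scaling to pan-neuronal genes, at 0.0729, and with cyclopamine replicate 1 alone, at 0.171), as did wnt8b (1.23 ± 0.26), the only other call among the 17 Wnt-side and other boundary regulators. Otx2 was not called (0.49 ± 0.14, adjusted p = 0.0699 in edgeR), whereas without estradiol replicate 1 it was (0.65, adjusted p = 0.0117). The other members differed by between -0.43 for en1 and 0.36 for fgf8 and were not called. Of the remaining lists, the receptor fgfr4 (0.62 ± 0.14) and the serotonin transporter slc6a4 (0.80 ± 0.20) were called higher in estradiol brains. No midbrain and tectum gene and no cerebellum and rhombomere 1 gene was called in this comparison in edgeR. Among the markers of other tissues, muscle genes summed to 33.8 to 64.3 CPM in estradiol brains, against 94.4 to 178 CPM in cyclopamine brains, with 8 of 11 called lower in estradiol brains, where 2.6% of all genes were. In the epidermis, leukocyte, and kidney and thyroid lists 1 gene each was called lower, and in the other marker lists 0 were. The part of these markers in the differences of pax5 and en2 was not tested.

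**Figure D3:**
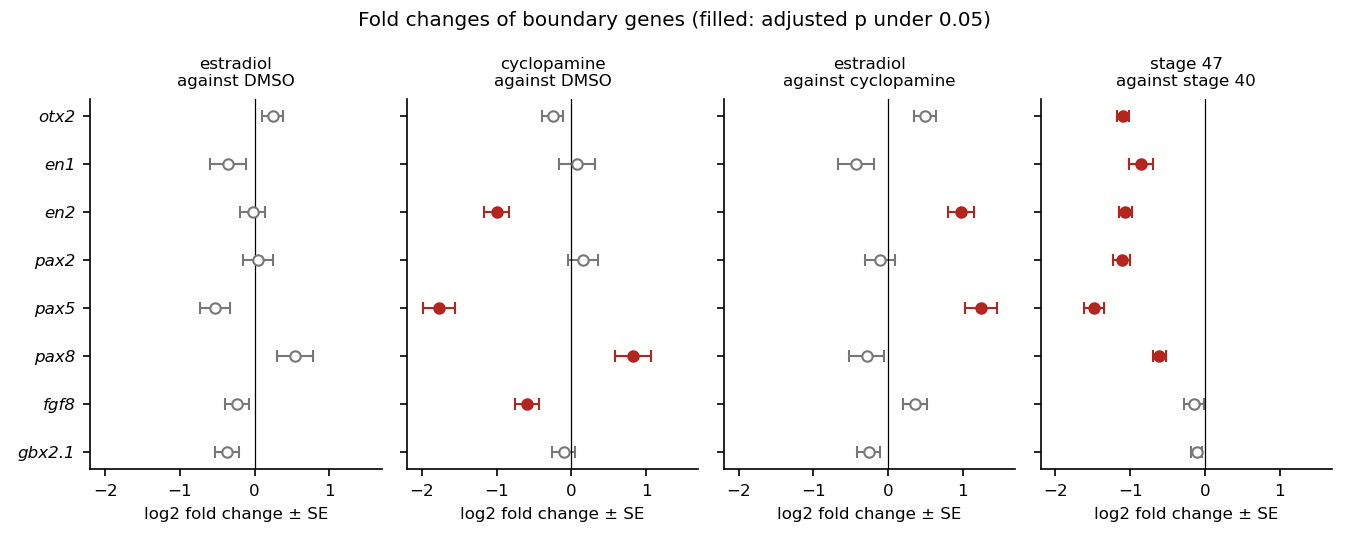
Log2 fold change ± SE (horizontal axis) of 7 boundary genes and gbx2.1 (rows) in 4 comparisons, 3 libraries per group; filled points have an adjusted p under 0.05 in edgeR. Pax5 is at -1.77 for cyclopamine against DMSO and at -1.48 for stage 47 against stage 40, while pax8 is at 0.83 in the first and at -0.61 in the second.

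**Figure D4:**
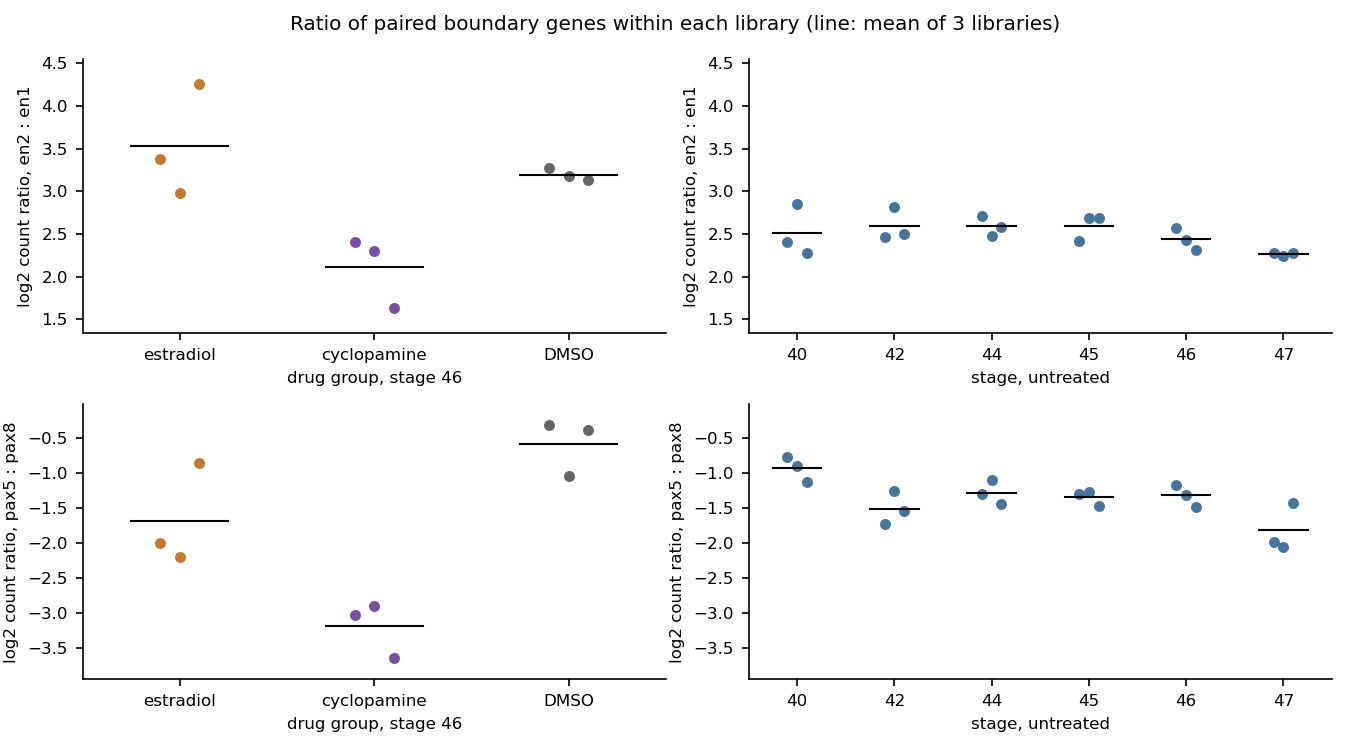
Log2 ratio of raw counts within each library (vertical axes) for en2 over en1 (top) and pax5 over pax8 (bottom), in the drug groups (left) and by stage (right); points are libraries, lines the mean of 3. The en2 to en1 ratio lies between 2.24 and 2.85 in the untreated libraries. Cyclopamine replicates 1 and 2 lie inside that range and all DMSO libraries above it. The pax5 to pax8 ratio averages -3.19 in cyclopamine brains, against -0.58 in DMSO brains, and lies between -2.06 and -0.77 in the untreated libraries. All cyclopamine libraries lie below that untreated range, and DMSO replicates 1 and 3 (-0.32 and -0.39) lie above it. At stage 46, the stage of the drug libraries, the untreated ratios are -1.16, -1.31 and -1.48, and all DMSO libraries lie above these.

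Over the 18 untreated libraries, the genes whose log2 CPM most resembled each member's were picked by Pearson correlation among 11794 genes with a symbol. These coefficients describe libraries that share stages and depth and carry no test. Otx2 was most like nlk.2, a kinase of the Wnt and Notch pathways (r = 0.990), followed by vps72 (r = 0.978). En2 was most like the FGF receptor fgfr1 (r = 0.972), followed by msantd2 (r = 0.971). Pax5 was nearest to hoxc3 (r = 0.972) and mllt1 (r = 0.963), pax2 to adamts7 (r = 0.945) and mrc1 (r = 0.944), and pax8 to lpar2 (r = 0.921) and cfb (r = 0.915). En1 was nearest to pcbp3 (r = 0.893) and the homeobox gene nkx6-1 (r = 0.885). Fgf8 had the weakest partners, bambi, a pseudoreceptor that limits TGF-β signalling (r = 0.808), and ildr2 (r = 0.793).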

How the data were processed

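RNA-seq of polyA-selected RNA from whole tadpole brain was analysed from 2 tables, of 9 drug libraries and 18 untreated libraries. The authors deposited raw read counts per gene and, for the same libraries, log2 values that from the values and file headers are log2(CPM + 1) after full-quantile normalization; the counts were used throughout and the log2 values for 1 alternative. The submitters' processing notes name STAR 2.7.3. The sources used here name no genome build, annotation or counter and say nothing of strand in counting, so overlapping and antisense genes cannot be told apart and no coordinates are given. Symbols are those of the files, and neighbouring genes those of the RefSeq gene table of assembly UCB_Xtro_10.0. Every value column was mapped to its sample by name (0 were left unmapped), and no 2 libraries of a group agreed within sampling noise (chi-square per degree of freedom from 2.64 to 56.9).

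Both tables got a fit of their own, in edgeR 4.0.16 (R 4.3.3), with TMM factors, filterByExpr, which removed no gene, group means and the robust quasi-likelihood F-test. Adjusted p-values are Benjamini-Hochberg over all genes of a table, with a threshold of 0.05. SE are from the fold change and its F statistic. Log2 CPM used a prior count of 2. Log2 ratios of counts within a library were compared by two-sided exact permutation tests, adjusted over all 16. The edgeR tests were also run on simulated counts that had the same spread for every gene and no unlike libraries within a group. That run does not show how the tests perform on the libraries used here. Alternatives were other scalings (relative log expression, and equal mean log2 CPM of the pan-neuronal list), no filter or a filter at 5 CPM in 3 libraries, DESeq2 1.42.0, limma 3.58.1 on the deposited log2 values, a replicate block, leaving out each library, only the libraries compared, and, added after the data were seen, cyclopamine replicate 1 as the sole library of its group. Since filterByExpr removed no gene, the setting without a filter repeated the main fit. It is counted among the alternatives but adds nothing to them. Equal replicate numbers did not pair the samples: deviations from group means correlated above 0.1 in 2 of 9 same-numbered pairs of drug libraries and 2 of 45 of untreated ones.

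The members and the 5 boundary lists and 12 marker lists were chosen with earlier results of these data known. Members are reported whatever their values, up to 4 called genes of lowest p per boundary list and comparison are eligible to be named, and for each member the 2 most similar genes whose log2 CPM averaged 1 or more.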

Additional observations from a re-analysis of the deposited data

Results flagged for a closer look

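Pax5 and en2 were called in the direct comparison of the 2 drug groups. With only the 6 libraries compared, both calls were lost (adjusted p = 0.0603 for pax5 and 0.0606 for en2 in edgeR). Under pan-neuronal scaling they were lost too (0.0878 and 0.13), and that of en2 also without cyclopamine replicate 3 (0.057). Calls over all genes fell as well, from 1097 to 290 with only the 6 libraries compared and to 237 under pan-neuronal scaling. Neither gene was called for estradiol against DMSO (adjusted p = 0.166 for pax5 and 0.939 for en2 in edgeR). Pax5 was 1.25 log2 units higher in estradiol than in cyclopamine brains, with 5.69, 6.39 and 9.88 CPM in estradiol brains and 3.32, 3.002 and 2.89 CPM in cyclopamine brains. En2 was 0.97 log2 units higher in estradiol than in cyclopamine brains, with 26.2, 25.9 and 37.6 CPM in estradiol brains and 18, 14.8 and 12.8 CPM in cyclopamine brains. The doses of the drugs differ and relate to different compounds, so the sizes compare these exposures only.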

How the results depend on the processing

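The 6 members called at stage 47 against stage 40, the 7 called among 6 stages and the call of pax5 in cyclopamine brains kept direction and call in each alternative run. Over adjacent stages the 13 calls became between 10 and 15. The cyclopamine count of 4 became 2 under pan-neuronal scaling, where calls over all genes went from 3171 to 2320. It lay between 2 and 4 when 1 library was left out, with 1127 to 2633 calls over all genes. With cyclopamine replicate 1 as the sole library of its group, log2 fold changes were -0.67 for en2, 0.83 for pax8 and -0.60 for fgf8. The count of 2 for estradiol against cyclopamine became 0 under pan-neuronal scaling and 0 with only the 6 libraries compared. Calls over all genes fell there too, from 1097 to 237 and to 290, so a loss of calls was not particular to the members. With 1 library left out the count lay between 1 and 3, with 444 to 1482 calls over all genes. With cyclopamine replicate 1 alone the log2 fold changes were 1.05 for pax5 and 0.65 for en2. The count of 0 for estradiol against DMSO became 1 without estradiol replicate 3, and lay between 0 and 1 with 1 library left out. The cause of these shifts was not tested. With a replicate block, although equal numbers did not pair the samples, the counts were 0 for estradiol, 4 for cyclopamine, 2 for the drugs against each other, 6 for stage 47 against stage 40, 7 among stages and 12 over adjacent stages, where fgf8 at stage 45 was lost (adjusted p = 0.0562 in edgeR).

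Signs turned only in differences that were not called in either fit. Under pan-neuronal scaling these were en2 (0.29), fgf8 (0.049) and otx1 (0.024) in estradiol brains, otx2 (0.068), gbx2.1 (0.21) and gbx2.2 (0.19) in cyclopamine brains, and en1 at stage 46 against stage 45 (-0.17). With limma on the deposited values they were pax2 with estradiol (-0.0030), en1 with cyclopamine (-0.13), gbx2.1 at stage 47 against stage 40 (0.0029), en1 at stage 44 (-0.023) and at stage 46 (-0.0065), and pax2 at stage 46 (0.045). With a filter at 5 CPM they were en2 with estradiol (0.032) and pax2 at stage 46 (0.0089), which was also 0.021 with relative log expression scaling and 0.020 in DESeq2, and gbx2.2 with cyclopamine replicate 1 alone (0.10). With 1 library left out, log2 fold changes spanned 0 for en2 (-0.19 to 0.067) and pax2 (-0.14 to 0.19) with estradiol, en1 (-0.0039 to 0.17) and gbx2.2 (-0.30 to 0.0046) with cyclopamine, pax8 at stage 42 (-0.11 to 0.053), en1 (-0.10 to 0.15) and en2 (-0.029 to 0.090) at stage 44, and en1 (-0.050 to 0.073), pax2 (-0.13 to 0.15) and pax5 (-0.17 to 0.0081) at stage 46, each against the stage before.

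Over all genes, cyclopamine calls were 1616 higher and 1555 lower, against 1763 and 862 with relative log expression and 2224 and 96 under pan-neuronal scaling; estradiol against cyclopamine gave 675 and 422, against 473 and 516 and against 115 and 122; estradiol gave 200 and 135, against 146 and 30 under pan-neuronal scaling; and stage 47 against stage 40 gave 6420 and 6553, against 4477 and 8819. Of all genes, 335 were called with estradiol in edgeR, 1451 in DESeq2, 197 in limma and between 27 and 1510 with 1 library left out; with cyclopamine 3171, and between 1127 and 2633 with 1 library left out. The low counts of en1 and fgf8, and of pax5 in cyclopamine brains (84, 61 and 61 counts), limit what these libraries can show.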
